A study of Mus musculus with 4 samples.

Results

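The *Rxfp1*-bearing neurons described here are a population of 81 nuclei that carries *Rxfp1*, the gene of the relaxin receptor, in a single-nucleus RNA-seq atlas of the mouse posterior hindbrain. Its members are the nuclei that passed the study's quality filter and belong to 1 of its preliminary clusters, which the deposited cell annotation names Ebf2/Nmu. They are 81 of 12539 neurons and of 39461 nuclei in all. The tissue held the area postrema and the nucleus tractus solitarius (NTS), brainstem centres that receive signals from the gut and the blood. Nuclei were sorted by DNA stain and captured with a 10x 3′ kit in 4 libraries, 2 per group. All mice carried 1 copy of each of 2 silent designer receptor alleles, hM3DGqfl/- and hM4DGifl/-, and the groups differed in the recombinases. Control mice, labelled WT, had neither recombinase (AgRP-IRES-Cre-/- and POMC-Dre-/-). The other group, AgRP-Gq;POMC-Gi, had AgRP-IRES-Cre+/-, so that Cre turns on an activating designer receptor in neurons that have expressed *Agrp*. It also had POMC-Dre+/-, so that Dre turns on an inhibiting receptor in neurons that have expressed *Pomc*. All mice, controls included, received the designer receptor's ligand clozapine N-oxide (CNO) at 3 mg per kg 1 h before collection, at 12 to 20 weeks of age, and both sexes were used. Tissue was pooled within each condition, from 2 mice per group by the paper's methods. Which mice entered which library is not given in the sources used here, so that the spread between libraries may not equal the spread between mice.

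*Rxfp1* encodes a G protein-coupled receptor for the peptide hormone relaxin, and its best known signal is a change in cyclic AMP. Neurons of the dorsal hindbrain are commonly sorted by the transcription factors of their lineage (*Ebf*, *Lmx1b* and *Tlx3*, for instance), by their fast transmitter (glutamate, GABA or glycine) and by the peptides they release. Neuromedin U, somatostatin and neurokinin B, which is made from *Tac2* in mice, are such peptides. Somatostatin and neurokinin B are also known from neurons of the dorsal horn, the spinal counterpart of the sensory hindbrain.

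The results turn on the peptide genes *Nmu*, *Sst* and *Tac2*, which were found together in part of the nuclei, so the 250 bases upstream of their annotated starts are shown (RefSeq, GRCm38.p6), each read 5′ to 3′ along the gene's own strand. They are *Nmu* at chr5:76363778-76364027 (minus strand), *Sst* at chr16:23890845-23891094 (minus strand) and *Tac2* at chr10:127724228-127724477 (plus strand). Capitals mark a cAMP response element (TGACGTCA).
Nmu: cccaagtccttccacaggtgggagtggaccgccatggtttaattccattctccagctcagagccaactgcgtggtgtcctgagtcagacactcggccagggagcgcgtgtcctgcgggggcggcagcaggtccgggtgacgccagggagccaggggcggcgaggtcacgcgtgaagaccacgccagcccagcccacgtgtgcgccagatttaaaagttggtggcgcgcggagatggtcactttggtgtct
Sst: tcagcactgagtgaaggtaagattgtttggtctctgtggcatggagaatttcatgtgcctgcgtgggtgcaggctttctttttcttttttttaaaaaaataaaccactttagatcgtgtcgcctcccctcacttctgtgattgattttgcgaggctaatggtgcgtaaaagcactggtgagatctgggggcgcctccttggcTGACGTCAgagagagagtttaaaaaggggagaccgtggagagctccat
Tac2: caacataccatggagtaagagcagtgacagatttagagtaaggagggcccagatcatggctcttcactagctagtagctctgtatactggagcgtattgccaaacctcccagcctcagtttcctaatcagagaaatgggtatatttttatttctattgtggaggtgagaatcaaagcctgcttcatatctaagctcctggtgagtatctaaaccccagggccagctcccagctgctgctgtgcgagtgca
Of 3 motifs searched, the *Sst* window held a cAMP response element that starts 48 bases before the annotated start, and the windows of *Nmu* and *Tac2* held none of the 3. The motifs were TGACGTCA, the homeodomain core TAATTA and the palindrome bound by EBF factors, TCCCNNGGGA, and each of them reads the same on both strands. They were present in 1.546%, 4.84% and 0.779% of all 32851 promoter windows of this length.

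The cluster was unevenly spread over the libraries. It held 15 nuclei in control 1, 10 in control 2, 14 in AgRP-Gq;POMC-Gi 1 and 42 in AgRP-Gq;POMC-Gi 2, so that 51.9% of its nuclei came from the last library. As a share of the neurons in each library this was 0.607% (95% exact Clopper-Pearson interval 0.340 to 1.00%), 0.365% (0.175 to 0.671%), 0.379% (0.207 to 0.635%) and 1.15% (0.834 to 1.56%), intervals that cover counting error only. The group means were 0.486 ± 0.171% in controls and 0.767 ± 0.549% in AgRP-Gq;POMC-Gi mice (SD, n = 2 libraries each). A two-sided exact permutation test gave p = 0.667, but the smallest value this design allows is 0.333, so the test could not have found a difference. Without AgRP-Gq;POMC-Gi 2 the sign of the difference turned, from 0.280 to -0.108 percentage points.

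The nuclei were shallower than the other neurons in each library, with medians of 5873, 7992, 5446.5 and 7187 UMIs (unique molecular identifiers, each a captured RNA molecule) against 9644, 8730, 8264 and 8537. Over all libraries the median was 6872 UMIs and 3021 genes per nucleus, against 8719 UMIs and 3570 genes in the other neurons. Summed over the cluster, the libraries gave 101908, 80727, 83700 and 317091 UMIs, and no barcode of the cluster was shared between libraries. All 10 pan-neuronal markers were found in at least 25% of the nuclei, with a summed level of 3268 to 4059 CPM (a gene's UMIs scaled to all UMIs of those nuclei) per library against 4425 to 4503 CPM in the other neurons. Oligodendrocyte markers summed to 167 to 372 CPM in the cluster and 164 to 335 CPM in the other neurons. Library differences that reach beyond the cluster were also present in it. *Ttr*, a transcript of the choroid plexus, stood at 9.81, 1152, 23.9 and 659 CPM in the 4 libraries of the cluster and at 1.46, 1003, 7.49 and 580 CPM in the other neurons. *Xist*, the RNA of the inactive X chromosome, stood at 1256, 743, 765 and 0 CPM in the cluster and at 504, 317, 541 and 16.4 CPM in the other neurons.

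*Rxfp1* marked the cluster but was not confined to it. Its level was 157 and 86.7 CPM in controls and 167 and 148 CPM in the other group, a mean of 140 ± 36.2 CPM (SD, n = 4 libraries) against 5.39 ± 2.01 CPM in all other neurons. All 4 libraries of the cluster lay far above the other neurons. The 84 UMIs came from 30 of the 81 nuclei (37.0%, interval 26.6 to 48.5%), that is 40.0%, 20.0%, 35.7% and 40.5% of the nuclei in the 4 libraries. With each nucleus thinned to 2000 UMIs, which left out 3 shallower nuclei of the cluster, 17.9% had an *Rxfp1* UMI, against 0.789% of the other neurons and 0.0526% of oligodendrocytes, which should lack the receptor. Because the clusters were built from expression, these and all values of the cluster against other neurons are descriptions without a test.

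Among the 134 neuronal clusters, which hold 15 to 227 nuclei each, the Ebf2/Nmu cluster came second for *Rxfp1*. The cluster named Rxfp1/Ebf2 was higher (314 CPM), Lhx2/Reln followed at 122 CPM and Kcnh8/Maf at 69.1 CPM. The gap to Lhx2/Reln was smaller than the spread between the libraries of the Ebf2/Nmu cluster. No *Rxfp1* UMI was found in 78 of the 134 clusters, and the Ebf2/Nmu cluster held 11.1% of all neuronal *Rxfp1* UMIs and 9.04% of the 332 neurons with at least 1. Of the 9 relaxin family receptors and ligands looked at, 7 had no UMI in the cluster, among them *Rxfp2* and *Rxfp3*, receptors of related peptides, and *Rln3*, the ligand relaxin-3. Of the 32285 genes listed, 15922 had a UMI in the cluster. A count of 0 in the cluster allows a level of up to 5.14 CPM and up to 3.70% of nuclei with a UMI, which sets no limit on the nuclei that express a gene.

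The leading genes of the cluster were *Nmu*, *Gmnc* and *Ebf2*, with *Rxfp1* in sixth place. Genes were ranked by the ratio of their mean CPM in the cluster to that in all other neurons, with 10 CPM added to both, among the 4044 genes detected in 25% or more of the cluster's nuclei. Of these genes 279 had a ratio of at least 2 and 57 of at least 4, and the median ratio was 1.02. All 25 leading genes were above the other neurons in each of the 4 libraries, 16 of them had one of the 3 highest levels among the 134 clusters, and 5 had the highest (*Nmu*, *4930432L08Rik*, *Colgalt2*, *Tgfbr3* and *Nrp1*). The list ended at *Ltbp1* with a ratio of 5.98, and *Cntnap5c*, at 5.88, was the first gene outside it.

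**Figure D1:**
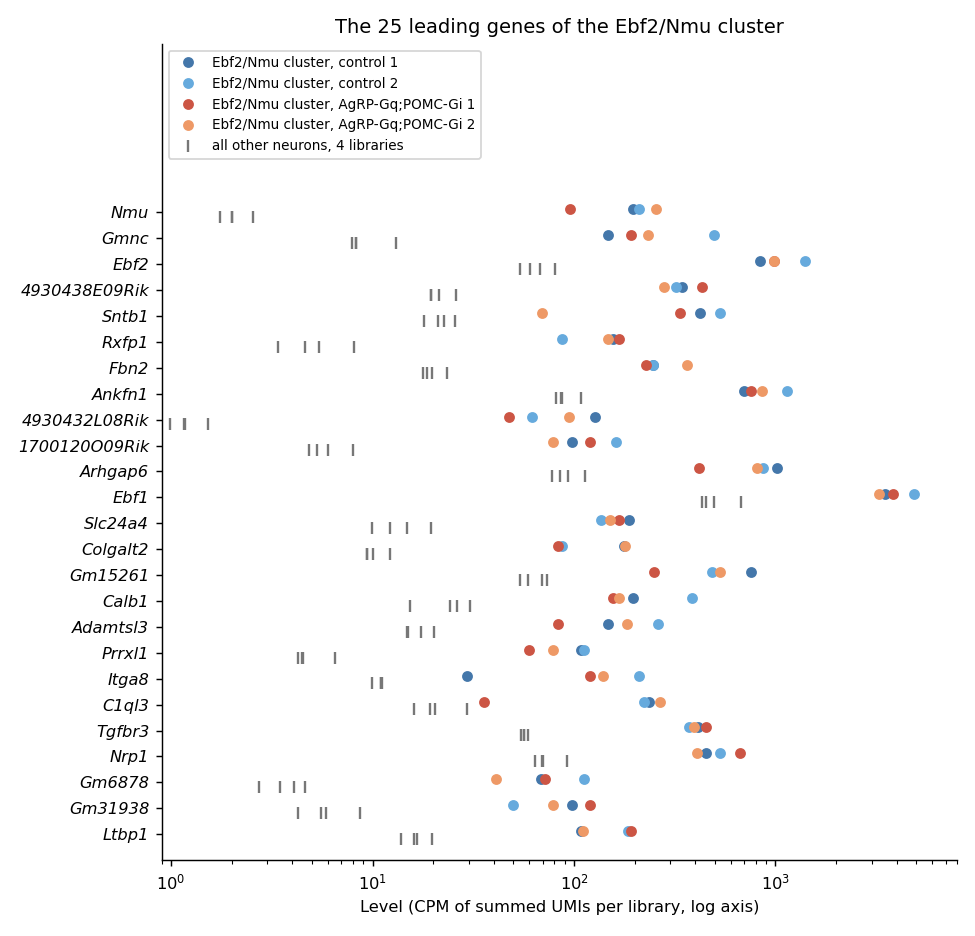
The 25 leading genes of the Ebf2/Nmu cluster (rows) by their level in CPM of UMIs summed per library (log axis). Coloured points are the 4 libraries of the cluster and grey ticks the 4 libraries of all other neurons; in every row all coloured points lie to the right of all ticks, *Nmu* with 95.6 to 255 CPM against a mean of 2.08 CPM.

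*Nmu* (ENSMUSG00000029236, chromosome 5, 76333495 to 76363788, GRCm38), the precursor of neuromedin U, gave the largest ratio. It stood at 196 and 211 CPM in controls, and at 95.6 and 255 CPM in the other group, a mean of 189 ± 67.5 CPM against 2.08 ± 0.333 CPM. The gene was found in 35 of 81 nuclei (43.2%, interval 32.2 to 54.7%). After thinning the share was 24.4% in the cluster, 0.447% in other neurons and 0.0965% in oligodendrocytes. The cluster held 32.5% of all neuronal *Nmu* UMIs.

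*Ebf2* (ENSMUSG00000022053, chromosome 14, 67233292 to 67430918), a lineage transcription factor, was found in 80 of 81 nuclei, and its level was 834, 1400, 980 and 987 CPM in the 4 libraries, a mean of 1050 ± 243 CPM against 65.4 ± 11.3 CPM. It was shared with many clusters, and 3 had more of it, the highest being Bnc2/Ebf2 at 2062 CPM. *Ebf1*, its paralog, stood at 3870 ± 696 CPM against 515 ± 111 CPM and was also found in 80 nuclei. *Gmnc*, a regulator known from ciliated cells, stood at 147, 495, 191 and 233 CPM against 9.40 CPM. *Sntb1*, which encodes a syntrophin scaffold protein, was uneven between libraries, with 69.4 CPM in AgRP-Gq;POMC-Gi 2 and 422, 533 and 335 CPM in the others. Even this lowest value exceeded the 21.9 CPM of the other neurons.

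Among the other leading genes, *Tgfbr3*, a TGF-beta co-receptor, was the most even, with 412, 372, 454 and 394 CPM against 56.6 CPM and the highest level of the 134 clusters. *Nrp1*, a receptor for semaphorins and VEGF, stood at 515 ± 115 CPM against 74.0 CPM. *Fbn2*, a fibrillin of the extracellular matrix, stood at 271 ± 62.0 CPM against 19.9 CPM. *Itga8*, an integrin, stood at 125 ± 74.6 CPM against 10.8 CPM, with 29.4 CPM in control 1 and 119 to 211 CPM in the others. *C1ql3*, a secreted synaptic protein, stood at 191 ± 105 CPM against 21.3 CPM. It was low in AgRP-Gq;POMC-Gi 1 (35.8 CPM) and between 223 and 268 CPM in the other 3 libraries. *Calb1*, the calcium buffer calbindin, stood at 226 ± 107 CPM against 24 CPM, and *Slc24a4*, a sodium-calcium exchanger, at 160 ± 21.5 CPM against 14.1 CPM. *Colgalt2*, a collagen galactosyltransferase, stood at 132 ± 53.7 CPM against 10.3 CPM.

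The 25 genes comprise 19 protein-coding and 6 non-coding ones (GENCODE M21), and 8 of the 25 overlap another gene of the list. *4930438E09Rik* (344 ± 63 CPM against 21.6 CPM), *1700120O09Rik* (114 ± 35.3 against 6.04 CPM) and *Gm6878* (73.2 ± 29.0 against 3.72 CPM) lie on the strand opposite to *Ebf2*. *4930432L08Rik* (83.0 ± 35.6 against 1.21 CPM) lies opposite to *Nmu*, and *Gm15261* (505 ± 207 against 64.0 CPM) opposite to *Arhgap6*. Whether strand was used in counting is not given in the sources used here, so the reads of these pairs may not be separate measurements. RefSeq promoter windows were found for 13 of the 25 genes, with none for *Rxfp1* and *Ebf2*. In these 13 windows TCCCNNGGGA was not found, TAATTA was found in 1 (*Gm31938*) and TGACGTCA in 1 (*Ltbp1*, 73 bases before the start).

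The nuclei carried these genes together. Each of the 81 nuclei had UMIs of 7 to 24 of the 25 leading genes, with a median of 15, against a median of 3 in other neurons. This follows in part from the ranking itself and is no test of the cluster. The 10 genes that were lowest relative to other neurons had UMIs in 3 to 13 of the nuclei each. *Meis2*, a homeodomain factor, stood at 3.15 CPM against 354 CPM, *Robo1*, an axon guidance receptor, at 59.0 against 1448 CPM, *Gpc5*, a glypican, at 28.8 against 938 CPM, and *Zfhx3*, a zinc finger homeobox factor, at 17.3 against 487 CPM. *Htr2c*, the serotonin 2C receptor, stood at 41.7 ± 67.8 CPM against 738 CPM, and *Cntnap4*, a contactin-associated protein, at 6.25 CPM against 247 CPM, the lowest of the 134 clusters. *Cacna2d3*, *Zfp536*, *Gm20713* and *8030451O07Rik* completed the list with 4.82 to 24.9 CPM against 175 to 528 CPM. Of the 81 nuclei 45 had no UMI of any of the 10 genes. There were 2 nuclei, both in AgRP-Gq;POMC-Gi 2, with 8 and 6 of the 10 genes (78 and 16 UMIs), at 13002 and 11709 UMIs in total and with 16 and 15 of the leading genes. Much of the *Robo1* and *Htr2c* level was in that library (161 and 142 CPM).

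Among the 46 neuropeptide and granin genes looked at, 20 had no UMI in the cluster, 7 were found in at least 25% of its nuclei, 5 had a ratio of at least 2 to the other neurons and 1 of at most 0.5. The median ratio of the list was 0.986 against 0.980 over all genes with a UMI in the cluster. In this and the other gene lists, ratios of at least 2 were counted only for genes detected in at least 10% of the cluster's nuclei. Ratios of at most 0.5 were counted only for genes detected in at least 10% of the other neurons. *Sst*, the precursor of somatostatin, stood at 157, 273, 108 and 278 CPM, a mean of 204 ± 84.9 CPM against 29.3 ± 4.18 CPM, in 49 nuclei (60.5%, interval 49.0 to 71.2%). Of all clusters, Mecom/Oprk1 alone had a higher mean (279 CPM), by less than the spread between libraries. After thinning, *Sst* was found in 34.6% of the cluster, 5.84% of other neurons and 4.16% of oligodendrocytes. *Tac2*, the precursor of neurokinin B, was the rarest of the 3 in the atlas. It stood at 177, 74.3, 0 and 218 CPM in the 4 libraries against 0.706 CPM in other neurons, and the 20 nuclei that had it held 51.1% of all neuronal *Tac2* UMIs. The 0 in AgRP-Gq;POMC-Gi 1, a library of 14 nuclei, allows up to 35.8 CPM. The next highest cluster, Nox4/Kcnmb2, had 15.6 CPM.

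The remaining peptide genes were less distinctive. *Chgb* (362 ± 127 against 86.1 CPM) and *Scg2* (375 ± 39.5 against 135 CPM), granins of the dense-core vesicles that store peptides, were higher than in other neurons in all 4 libraries. *Penk*, the precursor of the enkephalins, stood at 137, 37.2, 83.6 and 97.8 CPM against 42.6 CPM and was found in 29 nuclei. *Nxph1*, a ligand of neurexins, was lower (209 ± 53.1 against 819 CPM). *Agrp* itself, the gene whose promoter drives Cre in these mice, stood at 60.6 ± 18.9 CPM against 88.2 CPM in other neurons. The paper found *Cre* RNA selectively in AgRP neurons, a population it places in the arcuate nucleus of the hypothalamus. Whether these UMIs mean that hindbrain neurons express *Agrp* or Cre was not tested.

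**Figure D2:**
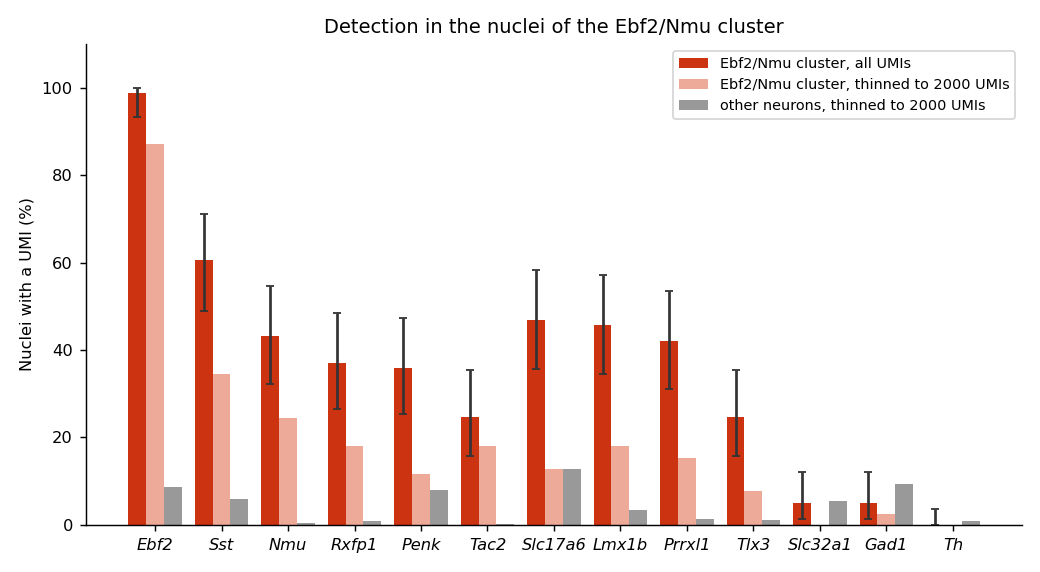
Share of the 81 nuclei of the Ebf2/Nmu cluster with at least 1 UMI of each gene (dark bars, error bars 95% exact intervals, for *Th* up to the share that 0 of 81 nuclei allows), the same after thinning to 2000 UMIs (light bars) and the share of other neurons after thinning (grey bars). *Ebf2* is near-complete, and *Sst*, *Nmu*, *Rxfp1* and *Tac2* are found in part of the nuclei. *Slc17a6*, at 12.8% after thinning, is as frequent as in the other neurons, a pool of glutamatergic and GABAergic clusters.

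Detection of these genes was also compared within the cluster. Of the 35 nuclei with *Nmu*, 82.9% had *Sst*, against 43.5% of the 46 nuclei without it. For *Tac2* the shares were 42.9% and 10.9%, and for *Calb1* 80.0% and 37.0%. *Penk* went the other way, with 20.0% of the nuclei with *Nmu* and 47.8% of those without. The 2 sets of nuclei were of like depth, with medians of 6872 UMIs with *Nmu* and 6996.5 without. Within single libraries, which held 2 to 22 nuclei with *Nmu*, the share with *Sst* and that with *Calb1* were higher among the nuclei with *Nmu* in 4 of 4, and the share with *Penk* lower in 4 of 4. For *Tac2* the share was higher in control 1 (4 of 6 against 1 of 9 nuclei) and AgRP-Gq;POMC-Gi 2 (10 of 22 against 3 of 20), and equal in the other 2. *Rxfp1* showed no such relation to *Nmu*, which was found in 43.3% of the nuclei with *Rxfp1* and 43.1% of those without, although the former were deeper (medians of 8213.5 and 5599 UMIs). Counted by nucleus, 25 had none of *Nmu*, *Sst* and *Tac2*, 22 had 1, 20 had 2 and 14 had all 3. Nuclei of 1 library share their source, and no test was run on these shares.

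Of the 6 glutamate transmitter genes, 4 were found in at least 25% of the nuclei and 1 had no UMI. Their ratios had a median of 1.06, none of a gene within the detection limit was 2 or more, and 2 of the genes were below the other neurons in all 4 libraries. *Slc17a6*, the vesicular glutamate transporter VGLUT2, stood at 58.9, 149, 83.6 and 126 CPM, a mean of 104 ± 40.6 CPM against 75.8 ± 3.08 CPM, and 57 clusters had more. It was found in 38 of 81 nuclei (46.9%, interval 35.7 to 58.3%). All 6 genes of the GABA and glycine list were below the other neurons in all 4 libraries, 5 of them with a ratio of at most 0.5. *Slc32a1*, the vesicular GABA and glycine transporter, had 5 UMIs in 4 nuclei (6.25 ± 7.22 against 27.2 CPM). *Gad1*, which makes GABA, stood at 3.94 ± 7.88 CPM against 50.8 CPM. Neither of the catecholamine genes *Th* and *Dbh* had a UMI in the cluster, and 9 of the 15 monoamine and acetylcholine genes had none.

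Of 70 lineage transcription factor genes, 36 had no UMI in the cluster, a share close to that over all genes (15922 of 32285 with a UMI). Of the 70, 8 had a ratio of at least 2 and 9 of at most 0.5 (median ratio 0.863). Beside *Ebf1* and *Ebf2*, the higher ones included *Ebf3* (348 ± 121 against 95.7 CPM) and factors known from excitatory neurons of the dorsal horn and hindbrain. *Prrxl1* stood at 108, 111, 59.7 and 78.8 CPM against 4.95 CPM, *Lmx1b* at 118, 111, 47.8 and 107 CPM against 15.6 CPM, and *Tlx3* at 58.9, 74.3, 11.9 and 34.7 CPM against 4.08 CPM. All 3 were lowest in AgRP-Gq;POMC-Gi 1 and still above the other neurons there. *Maf* (204 ± 104 against 42.3 CPM) and *Satb1* (114 ± 27.3 against 41.2 CPM) were higher as well. *Bnc2* and *Mecom* had no UMI in the cluster and 25.2 and 34.9 CPM in other neurons, and *Pax8*, *Onecut2*, *Foxp2* and *Bcl11b* stood at 0.788 to 3.89 CPM against 24 to 72.0 CPM.

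The *Hox* genes give the position of a neuron along the body axis. Of 23 of them 7 had no UMI. Within the detection limits 4 had a ratio of at least 2 and none had a ratio of at most 0.5. *Hoxb6* stood at 118, 12.4, 11.9 and 75.7 CPM against 8.36 CPM, so that control 1 and AgRP-Gq;POMC-Gi 2 were high and the others near the level of other neurons. *Hoxb5* was more even, with 39.3, 49.5, 59.7 and 59.9 CPM against 18.3 CPM. *Hoxb4* stood at 64.6 ± 22.4 CPM against 26.8 CPM, and *Hoxb8* at 16.7 ± 14.5 CPM against 1.97 CPM, with no UMI in AgRP-Gq;POMC-Gi 1.

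**Figure D3:**
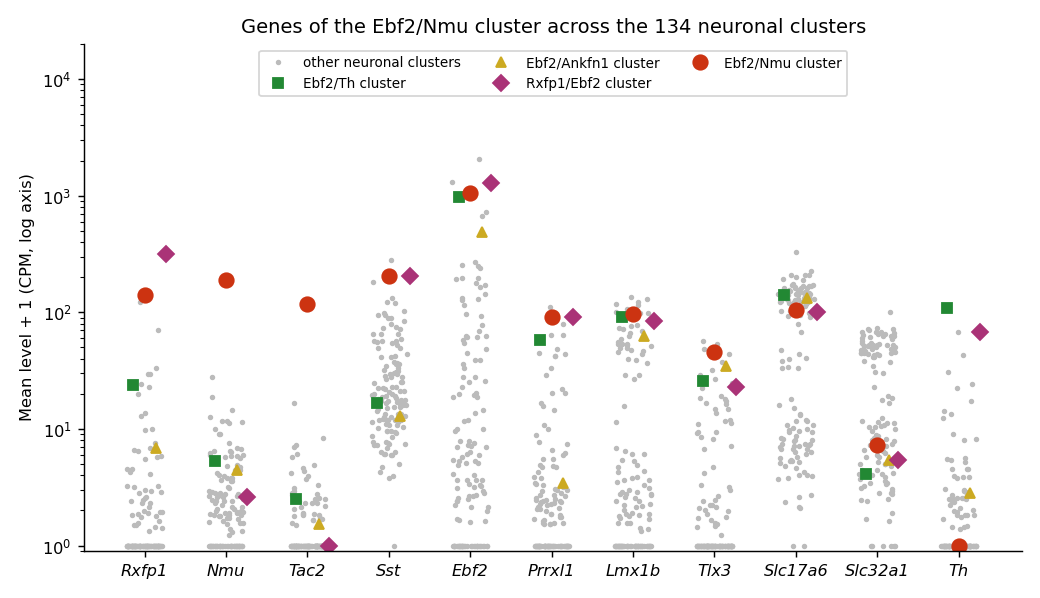
Mean level over the 4 libraries (CPM plus 1, log axis) of 11 genes in each of the 134 neuronal clusters; grey points are the other clusters, and the Ebf2/Nmu, Ebf2/Th, Ebf2/Ankfn1 and Rxfp1/Ebf2 clusters have their own symbols. For *Nmu* and *Tac2* the Ebf2/Nmu cluster lies above every other point, for *Rxfp1* the Rxfp1/Ebf2 cluster is higher, and for *Th* the Ebf2/Nmu cluster is at 0 CPM.

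Ion channel genes were present in breadth, with 36 of 52 in at least 25% of the nuclei, 9 with a ratio of at least 2 and 4 of at most 0.5 (median ratio 0.942). *Trpm3*, a cation channel of sensory neurons gated by heat and steroids, was found in all 81 nuclei, at 3680, 6256, 3536 and 4084 CPM, a mean of 4389 ± 1266 CPM against 747 ± 98.3 CPM. Its gene holds long introns, whose RNA is counted in nuclei, so this level is not comparable with that of shorter genes. *Cacna1h*, a T-type calcium channel that opens near the resting potential, stood at 74.8 ± 30.1 CPM against 12.2 CPM, and Ccdc172/Ebf2 was the 1 cluster with more (80.2 CPM). *Kcnt2* (495 ± 127 against 129 CPM), a sodium-activated potassium channel, and *Kcnd3* (422 ± 89.3 against 126 CPM), an A-type potassium channel, were higher in all 4 libraries.

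Among 43 ionotropic receptor genes, 26 were found in at least 25% of the nuclei, 4 had a ratio of at least 2 and 6 of at most 0.5 (median ratio 1.13). *Gabra4*, a GABA-A receptor subunit, stood at 157, 74.3, 191 and 120 CPM against 25.3 CPM, the highest mean of the 134 clusters but close to that of the Ebf2/Th cluster (127 CPM). *Grid1*, of the delta glutamate receptor family, stood at 1403, 1598, 1326 and 1574 CPM against 522 CPM, all 4 libraries well above the other neurons. *Gabrg3* (1741 ± 458 against 795 CPM), *Gabra2* (321 ± 102 CPM, 2.19 times the other neurons), *Grin2b* (1031 ± 209 against 516 CPM) and *Gria2* (2360 ± 389 against 1231 CPM) were also higher in all libraries.

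Of 70 peptide and hormone receptor genes, 24 had no UMI and 5 were found in at least 25% of nuclei. A ratio of at least 2 was seen for 4 and of at most 0.5 for 4 (median ratio 0.941). In all 4 libraries 3 of the genes were above the other neurons, and 38 were above in no library. The summed level of the list was 1115 to 1217 CPM in the cluster and 1297 to 1338 CPM in other neurons. *Npy5r*, a receptor of neuropeptide Y, stood at 68.7, 37.2, 35.8 and 28.4 CPM against 11.2 CPM in 17 nuclei. *Tacr3*, the receptor of neurokinin B, stood at 29.4, 49.5, 0 and 69.4 CPM against 10.6 CPM in 14 nuclei. It had no UMI in AgRP-Gq;POMC-Gi 1, the library that also lacked *Tac2* UMIs. A count of 0 there allows up to 35.8 CPM, above the 29.4 CPM of control 1, so it shows no difference. *Galr1*, a galanin receptor, stood at 23.5 ± 10.9 CPM against 4.97 CPM. *Nr3c1*, the glucocorticoid receptor, had 39.3, 74.3, 239 and 28.4 CPM against 41.2 CPM, and its ratio above 2 rests on 1 library. Of 30 monoamine receptor genes 6 had a ratio of at most 0.5 and none of at least 2 within the detection limits. *Htr1f*, a serotonin receptor, stood at 3.89 CPM, 0.0331 times the level of other neurons and the lowest of the 134 clusters, and *Htr4* at 3.15 CPM against 62.0 CPM.

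Of the 24 genes of cyclic AMP signalling, to which the relaxin receptor couples, 23 were found in at least 10% of the nuclei, 2 had a ratio of at least 2 and 2 of at most 0.5 (median ratio 0.990). *Pde1c*, a calcium-dependent phosphodiesterase, stood at 265, 570, 335 and 416 CPM against 97.7 CPM. *Adcy2*, an adenylyl cyclase, stood at 589, 334, 657 and 404 CPM against 196 CPM. In both genes all 4 libraries exceeded the other neurons.

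By correlation of mean levels, the clusters most like it were those named Ebf2/Th and Ebf2/Ankfn1. Likeness was the Spearman correlation of the mean log2(CPM + 10) over 13986 genes, at 0.898 and 0.897, all clusters coming from the same 4 libraries. Ebf2/Calb1 and Kcnh8/Maf followed closely, at 0.893 each. The Rxfp1/Ebf2 cluster, which shares both genes of its name, had 0.861. Means of small clusters rest on fewer UMIs, which can lower this value, and it was not adjusted for cluster size. These 3 neighbours hold 139, 170 and 58 nuclei. Their median nucleus had UMIs of 10, 7 and 12 of the 25 leading genes, so by this count Rxfp1/Ebf2 was the closest of the 3.

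A few genes set the cluster apart from these 3 neighbours. *Fbn2* stood at 271 CPM in the Ebf2/Nmu cluster and at 9.10, 5.67 and 3.17 CPM in Ebf2/Th, Ebf2/Ankfn1 and Rxfp1/Ebf2, while Ccdc172/Ebf2, which is not among the 3, had as much (276 CPM). *Nmu* stood at 4.36, 3.42 and 1.59 CPM there and *Tac2* at 1.51, 0.542 and 0 CPM. *Th*, the first enzyme of catecholamine synthesis, had no UMI in the Ebf2/Nmu cluster and stood at 107 CPM in Ebf2/Th and 67.0 CPM in Rxfp1/Ebf2, but at 1.84 CPM in Ebf2/Ankfn1. Other genes tied the cluster to 1 or 2 of them. *Sst* was as high in Rxfp1/Ebf2 (204 CPM) and low in Ebf2/Th and Ebf2/Ankfn1 (15.8 and 12.0 CPM). *Prrxl1* stood at 56.5 and 89.6 CPM in Ebf2/Th and Rxfp1/Ebf2 and at 2.41 CPM in Ebf2/Ankfn1, and *Nrp1* at 396 and 451 CPM against 23.2 CPM. *C1ql3* was highest in Ebf2/Th (427 CPM). *Itga8* was shared with Ebf2/Th (79.7 CPM) and near 0 in Ebf2/Ankfn1 and Rxfp1/Ebf2 (0.966 and 1.59 CPM).

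**Figure D4:**
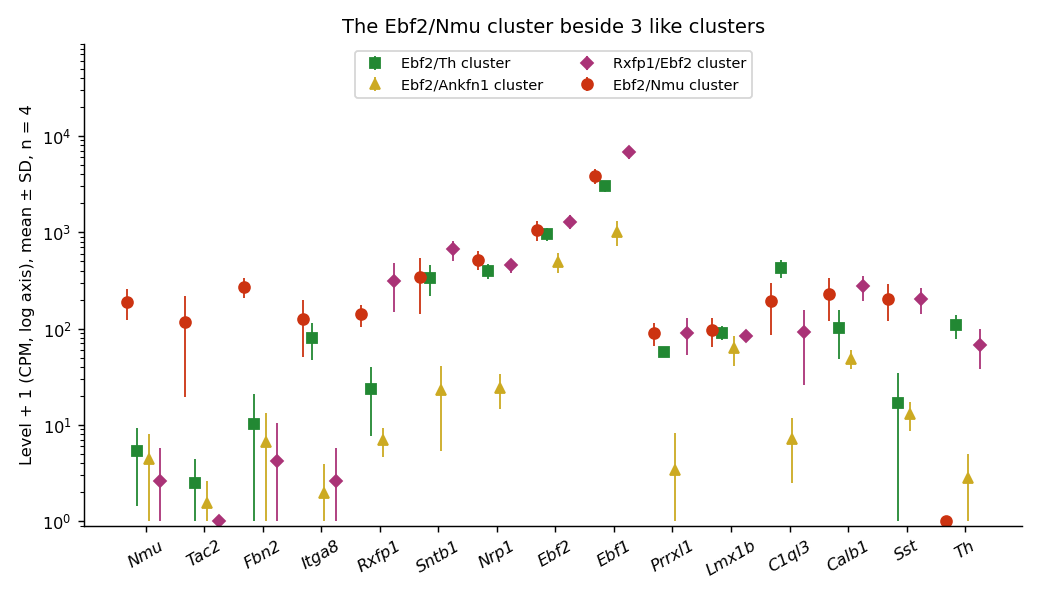
Level (CPM plus 1, log axis; mean ± SD over 4 libraries, bars ending at 0 CPM) of 15 genes in the Ebf2/Nmu cluster and the 3 clusters compared with it. *Nmu*, *Tac2* and *Fbn2* are high in the Ebf2/Nmu cluster alone among the 4, *Rxfp1* and *Sst* are high there and in Rxfp1/Ebf2, and *Th* is at 0 CPM there against 107 CPM in Ebf2/Th.

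Few genes of the cluster differed between the 2 genotypes, and none of its leading genes or of the genes in the 20 lists passed the test. In edgeR's quasi-likelihood test on UMIs summed per library, 5 of 10326 genes (0.0484%) passed an adjusted p of 0.05, 3 higher and 2 lower, and 388 had an unadjusted p under 0.05. DESeq2 called 1 of them. Of the 25 leading genes, all tested, 0 were called and 1 had an unadjusted p under 0.05. Their median log2 fold change was -0.10, against 0.08 over all genes tested. *Rxfp1* gave a log2 change of 0.39 (its standard error 0.42, adjusted p = 0.999), *Nmu* 0.06 (0.37) and *Sst* 0.12 (0.37), so that the errors leave room for changes in either direction. The control and AgRP-Gq;POMC-Gi libraries overlapped for *Nmu*, *Sst* and *Tac2*. Over all genes tested, 31.5% had groups that did not overlap.

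*Gm32647*, a long non-coding RNA, was the gene that both tools called, and its reads came from few nuclei. Its UMIs numbered 2, 1, 42 and 126 over the 4 libraries, from 1, 1, 3 and 5 nuclei, with 36 and 100 UMIs in a single nucleus of the AgRP-Gq;POMC-Gi libraries. This is 19.6 and 12.4 CPM in controls and 502 and 397 CPM in the other group, a change of 4.76 on the log2 scale (standard error 0.55, adjusted p = 2.65e-10). In other neurons the gene stood at about the same level in both groups, 1092 and 1088 CPM. In a fit added after the data were seen, which leaves out each gene's highest nucleus, the change was 3.66 (adjusted p = 6.11e-05). For *Gm32647* this took out the nucleus with 100 UMIs and kept the one with 36. The fit therefore does not show the call to be free of single nuclei.

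*Ntng1*, a netrin-G adhesion molecule, was lower, at 216 and 198 CPM in controls and 35.8 and 34.7 CPM in the other group. The log2 fold change was -2.46 (standard error 0.47, adjusted p = 0.00341) with UMIs in 15 nuclei. The change was -1.97 without each gene's highest nucleus (adjusted p = 0.113), -2.42 without control 1 (adjusted p = 0.0904) and -2.39 without AgRP-Gq;POMC-Gi 2 (adjusted p = 0.505). *Grm8*, a metabotropic glutamate receptor, stood at 0, 12.4, 83.6 and 123 CPM, a change of 4.22 (standard error 0.88, adjusted p = 0.0100). In AgRP-Gq;POMC-Gi 2, 22 of its 39 UMIs lay in 1 nucleus, and without each gene's highest nucleus the change was 3.25 (adjusted p = 0.606). It was 3.14 without control 1 (adjusted p = 0.776) and 3.72 without AgRP-Gq;POMC-Gi 2 (adjusted p = 0.8). The gene was still called without AgRP-Gq;POMC-Gi 1 (4.38, adjusted p = 0.00310) and without control 2 (7.25, adjusted p = 0.0417), where the remaining control library has no UMI and the size depends on the prior count.

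The other 2 called genes lie on the sex chromosomes. *Uty*, a gene of the Y chromosome, stood at 0, 49.5, 119 and 221 CPM (log2 fold change 3.11, adjusted p = 0.00341). *Tsix*, the antisense partner of *Xist*, stood at 393, 310, 215 and 0 CPM (log2 fold change -2.49, adjusted p = 0.00822). Neither *Tsix* nor *Xist* had a UMI in AgRP-Gq;POMC-Gi 2. The sex of the mice in each library is not given in the sources used here, and without AgRP-Gq;POMC-Gi 2 the changes of *Uty* and *Tsix* were 2.46 (adjusted p = 0.8) and -0.61 (adjusted p = 0.975). That of *Uty* was 1.95 without control 1 (adjusted p = 0.882). Both remained called without control 2 (adjusted p = 0.000343 for *Uty* and 0.000157 for *Tsix*) and without AgRP-Gq;POMC-Gi 1 (0.000102 and 1.31e-16). The fitted changes reached 7.99 for *Uty* without control 2 and -8.84 for *Tsix* without AgRP-Gq;POMC-Gi 1, where the 1 library left in that group is at 0 CPM and the size of the change is set by the prior count. In the other neurons of the 4 libraries *Uty* stood at 57.1, 82.5, 55.6 and 169 CPM and *Tsix* at 164, 108, 162 and 6.04 CPM. In the cluster *Xist* had UMIs in 15, 4, 7 and 0 nuclei of the 4 libraries and *Uty* in 0, 3, 5 and 29. Sex, not given by library, was not in the fits, so sex and group were not separated for these or any other genes tested.

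A test of whether the group difference in the cluster differed from that in the other neurons called 3 of 10326 genes (0.0291%). They were *Gm32647* (difference of the log2 fold changes 4.83, standard error 0.59, adjusted p = 1.74e-07), *Ntng1* (-2.64, 0.48, adjusted p = 0.00453) and *Grm8* (4.35, 0.92, adjusted p = 0.0444). In other neurons *Ntng1* stood at 421 CPM in controls and 457 CPM in the other group, and *Grm8* at 482 and 503 CPM. *Uty* and *Tsix* were not called by this test (adjusted p = 1.00 for both). No gene passed without control 1 or without control 2, where 373 and 338 genes had an unadjusted p under 0.05. The differences there were 5.11 and 4.63 for *Gm32647*, -2.59 and -2.73 for *Ntng1*, and 3.22 and 13.7 for *Grm8*. With control 2 left out, the control library that remains has no *Grm8* UMI in the cluster. *Grm8* also missed the threshold of this test without TMM factors (adjusted p = 0.0952). Without each gene's highest nucleus, *Ntng1* (-2.15, adjusted p = 0.178) and *Grm8* (3.40, adjusted p = 0.981) both missed it. Without AgRP-Gq;POMC-Gi 1, 8 genes were called, and without AgRP-Gq;POMC-Gi 2 *Gm32647* was the 1 gene called. *Sntb1*, the leading gene with the lowest p, missed the threshold in both tests (adjusted p = 0.224 and 0.128), but not under every setting. Its change of -1.47 between the groups passed without TMM factors (adjusted p = 0.0183), with the replicate block (0.00993) and without AgRP-Gq;POMC-Gi 1 (-2.69, adjusted p = 2.32e-05), and was -0.41 without AgRP-Gq;POMC-Gi 2 (adjusted p = 0.975). The test against other neurons passed under 4 alternatives, with a difference of -3.04 without AgRP-Gq;POMC-Gi 1 (adjusted p = 7.04e-08) and -0.59 without AgRP-Gq;POMC-Gi 2 (adjusted p = 1.00).

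The study ranked clusters by 10 immediate early genes (IEGs), whose transcription follows neuronal activity within minutes. Their summed level was 206, 223, 191 and 255 CPM in the 4 libraries of the cluster and 159, 153, 155 and 193 CPM in the other neurons. In the cluster 6 of the 10 had enough nuclei to be tested. Over all 10326 genes tested, edgeR called 5 and gave 388 an unadjusted p under 0.05. Of the 6 IEGs tested 0 were called by edgeR or DESeq2, and 1 had an unadjusted p under 0.05 by edgeR. That gene was *Fos*, with 0, 0 and 0 UMIs in the first 3 libraries and 10 UMIs in 5 nuclei of AgRP-Gq;POMC-Gi 2 (unadjusted p = 0.0269, adjusted p = 0.999 over all genes tested). This is 31.5 CPM in that library, while 0 UMIs allow up to 29.4, 37.2 and 35.8 CPM in the other 3, in order. The limits of control 2 and AgRP-Gq;POMC-Gi 1 lie above that value and the limit of control 1 just below it.

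Of the other IEGs, 5 were tested and overlapped between the groups. Over all 10326 genes tested, 31.5% had groups that did not overlap, so overlap was the more common outcome for any gene. *Homer1*, a synaptic scaffold and the only IEG in at least 25% of the nuclei, stood at 68.7 and 124 CPM in controls and at 71.7 and 53.6 CPM in the other group. *Junb*, a partner of *Fos*, stood at 49.1, 0, 11.9 and 22.1 CPM, and *Nr4a1*, a nuclear receptor, at 19.6, 0, 0 and 22.1 CPM. *Btg1*, an antiproliferative factor, stood at 19.6, 86.7, 59.7 and 25.2 CPM and the non-coding *1700016P03Rik* at 49.1, 12.4, 35.8 and 72.5 CPM. *Fosl2*, *Nr4a3*, *Gem* and *Jun* had UMIs in at most 3 nuclei and were not tested. *Gem* had 1 UMI in each AgRP-Gq;POMC-Gi library and none in controls. The direction of *Nr4a1*, *Junb* and *Btg1* turned when single nuclei or libraries were left out.

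**Figure D5:**
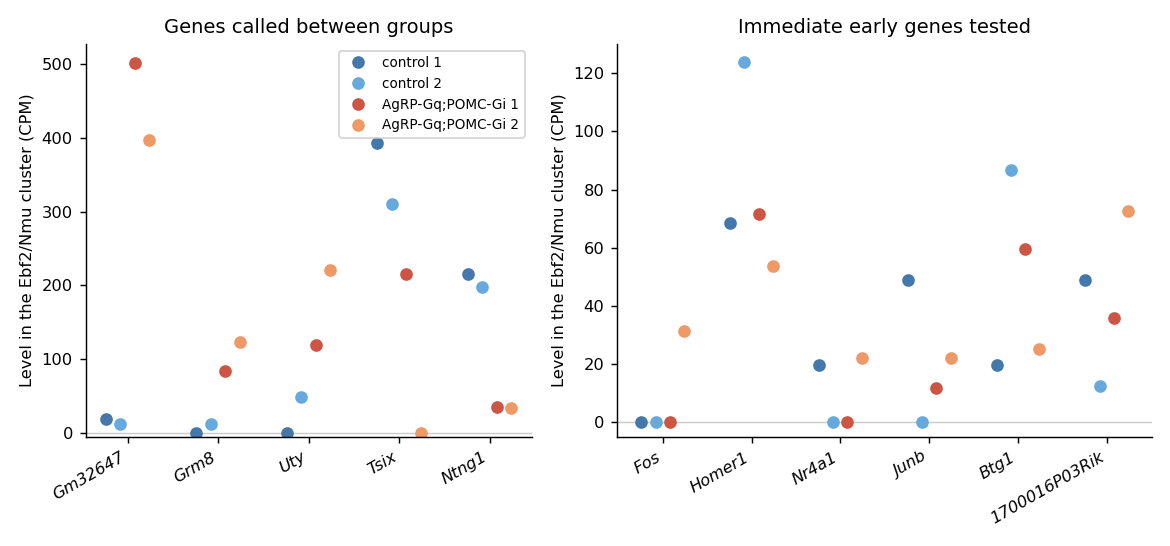
Level in the Ebf2/Nmu cluster (CPM) of the 5 genes called between the groups (left) and the 6 IEGs tested (right), 1 point per library, with controls in blue and AgRP-Gq;POMC-Gi libraries in red and orange. The genes on the left were chosen by the test. On the right the groups overlap for all 6, and *Fos* has UMIs in AgRP-Gq;POMC-Gi 2 alone (31.5 CPM). Over all genes tested, the groups did not overlap for 31.5%.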

How the data were processed

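The authors' deposited files were UMI count matrices of 4 10x libraries (2 control, 2 AgRP-Gq;POMC-Gi) and a cell annotation with their quality filter, clusters and names, made with Cell Ranger 7.0.0 and Seurat 4.3.0 on mm10 per the labels. The authors ran a doublet caller, so none was run again. UMIs of the Ebf2/Nmu cluster (number 117 in the annotation) and of the other neurons were summed per library and scaled to CPM with Python 3.11.15, pandas 2.3.3 and scipy 1.17.1. Intervals and the limit of 3 counts at 0 cover counting error only. Groups were compared with edgeR 4.0.16 (quasi-likelihood, TMM, Benjamini-Hochberg) in R 4.3.3 over genes detected in 5% or more of the cluster's nuclei, and group effects in and outside the cluster with a library block on 8 summed profiles. DESeq2 1.42.0, filters, other scalings, left-out libraries and a replicate block were alternatives. The scripts were tested on simulated data. The study's model, which fits nuclei with sample-level effects, was not run here. The summed counts per library stand in its place.

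Named were the 25 leading and 10 lowest genes, up to 10 genes per test and list by size or p, the IEGs, and *Rxfp1*, *Ebf2*, *Nmu*, *Th*, *Dbh*, *Slc17a6* and *Slc32a1*. *Rxfp2*, *Rxfp3*, *Rln3*, *Xist*, *Pdgfra* and *Dcn* were named after their values were seen. A few genes that the rule names are not reported here. Members and lists were chosen with earlier results of these data known. Depth was 80727 to 317091 UMIs per library of the cluster, and a count of 0 allows 9.46 to 37.2 CPM. Gene positions are from GENCODE M21 (GRCm38).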

Additional observations from a re-analysis of the deposited data

Results flagged for a closer look

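In the Ebf2/Nmu cluster, 3 genes had a group difference that differed from that in the other neurons by edgeR's interaction test. *Gm32647* differed by 4.83 on the log2 scale, with 36 and 100 of its UMIs in a single nucleus of each AgRP-Gq;POMC-Gi library. *Ntng1* differed by -2.64, with 216 and 198 CPM in controls and 35.8 and 34.7 CPM in the other group. *Grm8* differed by 4.35, with 22 of its 39 UMIs in AgRP-Gq;POMC-Gi 2 in 1 nucleus. Without each gene's highest nucleus, *Ntng1* and *Grm8* did not pass this test (adjusted p = 0.178 and 0.981). Sex was not in the fit. Groups of 2 libraries are too small for a test of samples far from the others.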

How the results depend on the processing

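The means of *Rxfp1* in the cluster and in other neurons stayed within the spread between libraries under every alternative run. The share of nuclei with an *Rxfp1* UMI was 17.9% after thinning to 2000 UMIs, against 37.0%. The difference in the cluster's share of neurons ranged from -0.108 percentage points without AgRP-Gq;POMC-Gi replicate 2 to 0.668 without AgRP-Gq;POMC-Gi replicate 1. Of the 25 leading genes, 14 were also leading with a detection minimum of 50% and 14 with 50 CPM added.

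The count of genes called between groups (5) was 10 without TMM factors, 1 with DESeq2, 9 without a gene filter, 1 with filterByExpr, 2 with a detection minimum of 10% and 4 to 12 with 1 library left out. With the replicate block it was 10. Deviations of same-numbered libraries in the cluster correlated at 0.0282 over 10326 genes. Few nuclei per library lower such a correlation, so it cannot exclude a pairing. *Ttr* in other neurons was low in control 1 and AgRP-Gq;POMC-Gi 1 (1.46 and 7.49 CPM). It was high in control 2 and AgRP-Gq;POMC-Gi 2 (1003 and 580 CPM). The main test between groups used no replicate block. The count for the difference from other neurons (3) was 1 with DESeq2, 5 without a filter and 0 to 8 with 1 library left out, where the lone library is assumed to vary like the other group. The cause of these moves was not tested.

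An alternative chosen after seeing the data left out each gene's highest nucleus. It called 5 and 2 genes in the 2 tests, but not the same genes as the main fits. Between groups *Ntng1* (adjusted p = 0.113) and *Grm8* (0.606) were no longer called, and *Xist* was (-1.61, adjusted p = 0.00161). In the test against other neurons *Ntng1* (adjusted p = 0.178) and *Grm8* (0.981) were no longer called, and *Sntb1* was (-1.77, adjusted p = 0.0221). This alternative also turned the direction of *Nr4a1* (-0.15), *Junb* (0.79) and *Btg1* (0.52). With 1 library left out the values ranged from -3.10 to 4.53 for *Nr4a1*, from -1.22 to 4.73 for *Junb* and from -1.29 to 0.81 for *Btg1*. IEG calls were 0 under every alternative run. With 10 to 42 nuclei per library, genes in few nuclei limit these tests.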

Other observations

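Astrocyte markers summed to 147 to 186 CPM in the Ebf2/Nmu cluster and 88.8 to 92.2 CPM in the other neurons. Most of the difference was *Slc4a4*, a bicarbonate transporter, at 128, 149, 155 and 145 CPM against 65.8 CPM, found in 42 nuclei. The Ebf2/Th and Rxfp1/Ebf2 clusters stood at 12.0 and 0 CPM for this gene. The level in Ebf2/Ankfn1 is not given here, so *Slc4a4* is not called particular to the cluster. OPC markers summed to 196, 24.8, 0 and 6.31 CPM, and the 7 *Pdgfra* UMIs of control 1 came from 1 nucleus. *Dcn*, a matrix proteoglycan, had 9 UMIs, all in 1 nucleus of control 2. Among pan-neuronal markers, *Elavl4* was low in the cluster, at 57.1 ± 6.36 CPM against 313 CPM in other neurons.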
